A study of Homo sapiens with 4 samples.

Results

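The endothelin system was followed in Hs578T, a widely used human breast carcinoma cell line, after depletion of TLN1, which encodes the integrin adaptor talin-1. It comprises 6 genes here, the ligands EDN1 and EDN2, the receptors EDNRA and EDNRB and the converting enzymes ECE1 and ECE2, out of 60721 genes in the count table. The genes were picked because EDN1 was higher after TLN1 depletion, so the difference of EDN1 between the groups is given as a description with no test, and the other 5 genes were taken for their place in the same system. All cells received GFP and were transfected with 1.6 µM RNA, either a non-targeting control (SCR, 2 libraries) or siRNA against TLN1 (siTLN1, 2 libraries), and RNA was collected 48 h later. Each of the 2 libraries in a group was labelled a biological replicate, all from 1 cell line. The libraries of a group are called a and b by a number in the headers of the counts, whose meaning is not stated. No replicate label holds that number. The same header numbers occur in both groups, but no label states a pairing. The tests below used no pairing, except where a replicate block is named. Of the 6 genes, 3 (EDN1, EDNRA and ECE1) were counted often enough to be tested. EDN2, EDNRB and ECE2 were not, and they have no entry among the log2 CPM values (counts scaled to library size) that the authors deposited. The p-values below set a group difference against the spread between these libraries, with the variance of each gene drawn toward that of the other tested genes. They cover these libraries only.

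Endothelins are short vasoactive peptides cut from larger precursors. Furin-type proteases first release an inactive intermediate, big endothelin, and the membrane metalloproteases ECE1 and ECE2 then cut it to the active peptide. The peptide acts on EDNRA and EDNRB, G protein-coupled receptors that signal through Gq and other G proteins. EDNRA binds the peptides of EDN1 and EDN2 with high affinity, EDNRB binds all endothelins alike, and EDNRB is also known for clearing the peptide. Endothelial cells are the best known source of EDN1, but many carcinoma and stromal cells make it too.

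The ligand genes were compared only over the stretch that codes for the mature peptide. This stretch is 63 bases (21 codons) long in both genes and differs at 12 bases in 8 codons, of which 2 change the residue. It is shown because EDN1 was abundant and EDN2 near the limit of detection, and the lines let the ligands be told apart. Both were read from GENCODE 29 transcripts by the spacing of the conserved cysteines, and capitals mark the differing bases.
EDN1: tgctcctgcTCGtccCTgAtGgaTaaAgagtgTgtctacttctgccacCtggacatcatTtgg
EDN2: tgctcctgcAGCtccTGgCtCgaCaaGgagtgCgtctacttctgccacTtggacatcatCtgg

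The RefSeq table (GRCh38.p14) gives 3 start sites for EDN1, and 1 of them coincides with the start of the gene model used for counting. The 250 bases before that start (chr6:12290111-12290360, plus strand) are shown because EDN1 had the largest fitted fold change of the 3 tested members. Capitals mark, from left to right, a GATA word (AGATAA, on the opposite strand), the core of the hypoxia response element (ACGTG, on the opposite strand) and a word like the AP-1 site (TGACTAA).
EDN1 promoter: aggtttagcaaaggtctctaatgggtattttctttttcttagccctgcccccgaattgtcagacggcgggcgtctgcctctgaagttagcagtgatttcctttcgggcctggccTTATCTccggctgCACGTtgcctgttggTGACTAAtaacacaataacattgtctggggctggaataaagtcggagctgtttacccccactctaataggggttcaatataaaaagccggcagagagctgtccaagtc

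The GATA word lies 136 to 131 bases before the start, the hypoxia core 123 to 119 bases before it and the AP-1-like word 108 to 102 bases before it. They do not overlap. The words were chosen with this sequence in view. Searched on both strands over 35116 RefSeq windows of 300 bases, the GATA word was held by 10.3%, the hypoxia core by 21.4% and the AP-1-like word by 1.90%. The AP-1 consensus TGANTCA (7.71% of windows) was not in any window of the members, and the TEAD core GGAATG (14.0%) was in another EDN1 window and in windows of EDN2 and EDNRB. The hypoxia core also occurred 2 times in the remaining EDN1 window and 3 times in the 2 windows of EDNRB. The window of EDNRA and the 4 windows of ECE1 held none of these words, and the table used here gave no window for ECE2. A match is a description of the sequence and says nothing of binding.

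The libraries held 31854322 to 46353297 counts assigned to genes. TLN1 had 868 and 874 CPM under SCR but 51.9 and 44.8 CPM under siTLN1, in the direction of the labels. Mesenchymal markers (VIM, CDH2, FN1 and ZEB1) summed to between 28109 and 36660 CPM, and CDH2 (N-cadherin) fell by 0.89 on the log2 scale. Epithelial markers, the class named in the labels, summed to 122 to 152 CPM, nearly all from KRT18 and KRT8. EPCAM did not exceed 0.144 CPM in any library. KRT19 had 0 and 0 counts in SCR and 3 and 6 counts in siTLN1, at most 0.128 CPM. CDH1 was at 0.409 and 0.517 CPM in SCR and 0.797 and 0.851 CPM in siTLN1, from 13 to 40 counts. Its log2 fold change was 0.83 (adjusted p 0.192 in edgeR's quasi-likelihood test). Markers of endothelial cells, a known source of EDN1, summed to 6.45 and 5.54 CPM in SCR and to 4.89 and 5.45 CPM in siTLN1, nearly all from PECAM1 and KDR. PECAM1 was at 4.47 and 3.76 CPM in SCR and 2.86 and 3.30 CPM in siTLN1, and KDR was at 1.21 to 1.55 CPM. VWF was at or below 0.345 CPM, and CDH5 had 0 and 1 counts in SCR and 5 and 7 counts in siTLN1. Of the 5 endothelial markers, 3 were tested and 0 passed the threshold in edgeR's quasi-likelihood test, with PECAM1 alone, as the lower one in siTLN1, at an unadjusted p under 0.05 (p 0.0364, adjusted p 0.211). Melanocytic markers, of interest because melanocytes are known for EDNRB, summed to 8.08 to 8.60 CPM, nearly all from MITF, and DCT and TYR had 0 counts. Leukocyte markers summed to 1.10 to 1.54 CPM, with CD3E at 0 counts. Apart from CDH2, no marker in these 5 lists was called by edgeR. The part of any of these cell types in the results below was not tested.

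EDN1 (ENSG00000078401.7; GRCh38, chromosome 6, 12290361 to 12297194, plus strand), which encodes the precursor of endothelin-1, was counted 1885 (SCR a), 2077 (SCR b), 4249 (siTLN1 a) and 4614 (siTLN1 b) times. After scaling of library sizes this was 59.3 and 59.6 CPM in SCR and 117 and 98.2 CPM in siTLN1. The SCR libraries were nearly equal, both siTLN1 libraries were above them, and siTLN1 library a was the higher of its group. The means were 59.5 ± 0.238 CPM (SD, n = 2) and 107 ± 13.1 CPM (SD, n = 2), a fitted log2 difference of 0.85 (standard error 0.10), or 1.81-fold. The authors' deposited log2 CPM values for EDN1 were 5.89 and 5.90 in SCR replicates 1 and 2 and 6.87 and 6.62 in siTLN1 replicates 1 and 2. Without siTLN1 library a the log2 fold change was 0.72, and it lay between 0.72 and 0.98 when any 1 library was left out. None of the 2035 exon bases of EDN1 is shared with another gene, so the counts of EDN1 are not split with a neighbour. A change in the number of cells that express a gene and a change in its RNA per cell cannot be told apart in bulk RNA.

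EDN2 (ENSG00000127129.10; chromosome 1, 41478775 to 41484683, minus strand), which encodes the precursor of endothelin-2, had 0 and 4 counts in SCR and 2 and 3 counts in siTLN1. That is 0 to 0.115 CPM, where 3 counts, the limit that a count of 0 allows, correspond to 0.0638 to 0.0944 CPM depending on the library. No difference between the groups was detectable for EDN2 at this depth. EDN3, the third ligand gene and not one of the 6, had 0 counts in each library.

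**Figure D1:**
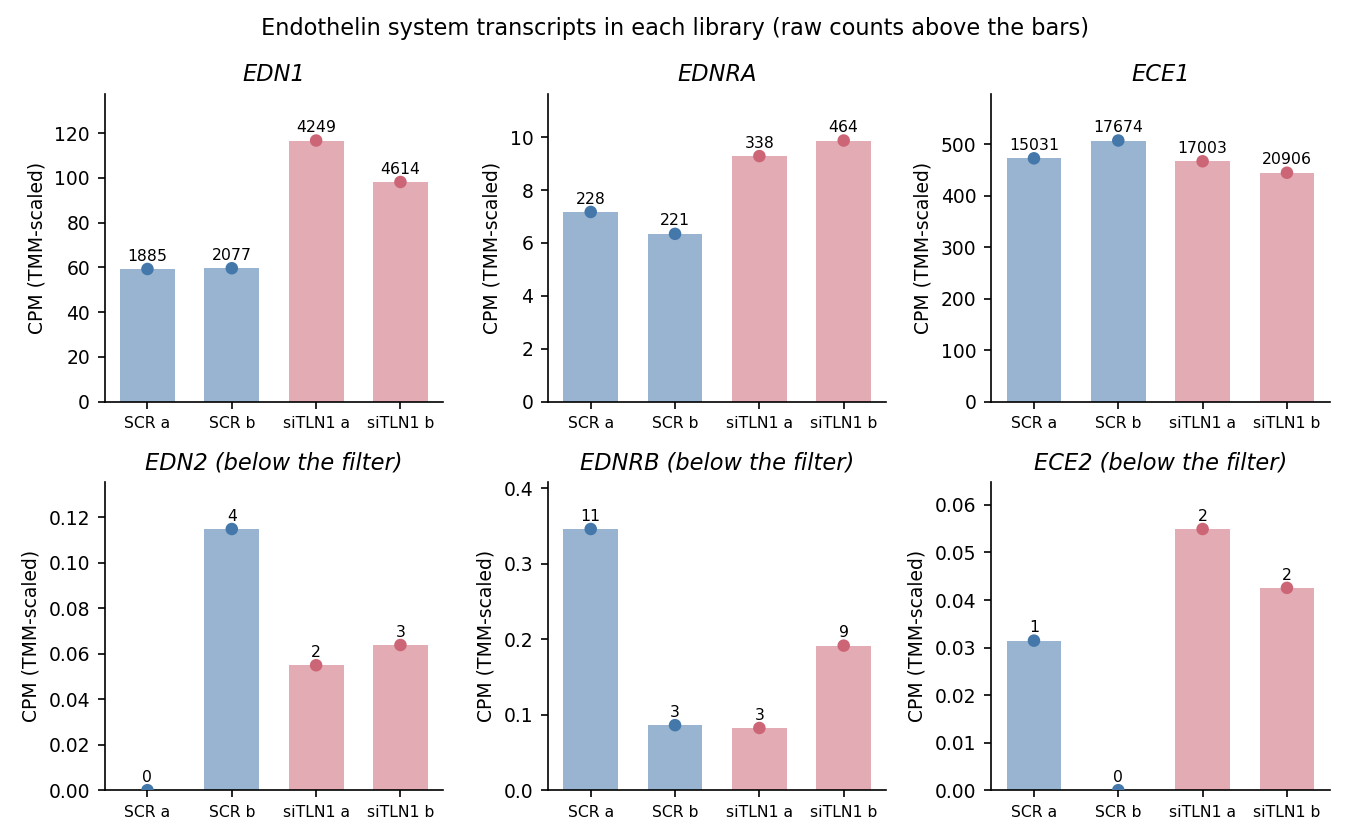
Each panel plots the CPM (y axis, linear, from 0, scaled separately in each panel) of 1 gene in the 4 libraries (x axis; blue SCR, red siTLN1), with the raw counts above the bars. EDN1 and EDNRA are higher in both siTLN1 libraries, ECE1 differs little, and the lower row shows the 3 genes with 11 counts or fewer in any library.

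EDNRA (ENSG00000151617.17; chromosome 4, 147480917 to 147544954, plus strand) was the receptor gene that could be tested, and it was higher after TLN1 depletion. It had 7.17 and 6.35 CPM in SCR libraries a and b and 9.29 and 9.87 CPM in siTLN1 libraries a and b, from 221 to 464 counts. Both siTLN1 libraries lay above both SCR libraries. The means were 6.76 ± 0.585 CPM (SD, n = 2) and 9.58 ± 0.416 CPM (SD, n = 2), a rise of 0.51 on the log2 scale (standard error 0.14, 95% interval 0.22 to 0.80). By edgeR's quasi-likelihood test, Benjamini-Hochberg adjusted over all tested genes, its adjusted p was 0.0359. This call was near the threshold and was lost with DESeq2 (adjusted p 0.0752) and when low counts were not filtered (adjusted p 0.0542). It was also lost in edgeR fits without SCR library b (adjusted p 0.179), without siTLN1 library a (0.136) and without siTLN1 library b (0.156), while the log2 fold change stayed between 0.42 and 0.60 whichever library was left out. Over the 11 other settings its adjusted p ran from 0.000421 to 0.179. EDNRA shares no exon base with another gene, and counting error alone at its lowest count is 6.73%.

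EDNRB (ENSG00000136160.17; chromosome 13, 77895481 to 77975529, minus strand), the second receptor, had 11 and 3 counts in SCR and 3 and 9 counts in siTLN1, or 0.346, 0.0861, 0.0824 and 0.192 CPM. The groups overlapped, and the SCR libraries differed from each other by more than the group means of 0.216 and 0.137 CPM did. No difference was detectable for EDNRB at this depth.

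ECE1 (ENSG00000117298.16; chromosome 1, 21217247 to 21345572, minus strand), the main endothelin-converting enzyme, was the most counted of the 6 genes, with 15031 to 20906 counts. It was at 473 and 507 CPM in SCR libraries a and b and at 467 and 445 CPM in siTLN1 libraries a and b. The siTLN1 values were the lower ones, with a gap between the groups smaller than the spread within either. The means were 490 ± 24.5 CPM (SD, n = 2) and 456 ± 15.7 CPM (SD, n = 2), or −0.10 as a log2 difference (standard error 0.096, adjusted p 0.612, same test). The 95% interval ran from −0.31 to 0.098, so a rise of ECE1 as large as that fitted for EDNRA lies outside it. Of the exon bases of ECE1, 3.28% are shared with ECE1-AS1 on the opposite strand, which had 1 to 7 counts.

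ECE2 (ENSG00000145194.18; chromosome 3, 184276011 to 184293031, plus strand), the second converting enzyme, had 1 and 0 counts in SCR and 2 and 2 counts in siTLN1, all at or below the limit that a count of 0 allows. Its level is uncertain for a further reason. Of its 4729 exon bases, 62.7% are also exon bases of EEF1AKMT4-ECE2, a readthrough gene on the same strand, and with the counting options in the header reads that fit both genes go to neither. EEF1AKMT4-ECE2 itself had 0 counts in each library, so the count of ECE2 rests on the remaining 1764 bases.

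Levels of different genes were set side by side as CPM per kilobase of exon. In SCR the order was ECE1 (67.1 ± 3.35 CPM per kilobase, SD, n = 2), EDN1 (29.2 ± 0.117), EDNRA (1.59 ± 0.138), EDNRB (0.0385 ± 0.0328), EDN2 (0.0348 ± 0.0492) and ECE2 (0.00333 ± 0.00470). EDNRB and EDN2 did not differ beyond their spread, and the value of ECE2 leaves out reads from the bases it shares while being divided by its whole length. In siTLN1 the first 3 kept this order, with ECE1 at 62.4 ± 2.15, EDN1 at 52.8 ± 6.44 and EDNRA at 2.26 ± 0.0982 CPM per kilobase. The ratio of EDN1 to ECE1 on this scale was 0.450 and 0.422 under SCR but 0.897 and 0.793 under siTLN1. On this scale EDN1 thus came closer to ECE1 without reaching it in any library. The exon length joins the exons of all transcripts of a gene, and GENCODE 29 holds 14 transcripts of ECE1 and 1 of EDN1. The ratio of the RNA molecules themselves may therefore be different. Among the 16137 tested genes by mean CPM per kilobase, ECE1 held rank 507 in SCR and 545 in siTLN1, EDN1 rank 1412 and 679, and EDNRA rank 9961 and 9037.

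Against the background, 980 of 16137 tested genes (6.07%) had an adjusted p under 0.05, of which 371 (2.30% of those tested) were higher and 609 (3.77%) lower in siTLN1. Of the 2 tested members not chosen for their own change, EDNRA was called and ECE1 was not, which is too few to read against that share. The libraries of the groups did not overlap, with siTLN1 above, in 23.9% of tested genes, and with siTLN1 below in 24.6%. EDN1 and EDNRA are in the first class and ECE1 in the second, so the absence of overlap alone says little with 2 libraries a group. The number of called genes depended on siTLN1 library a, without which it was 347.

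**Figure D2:**
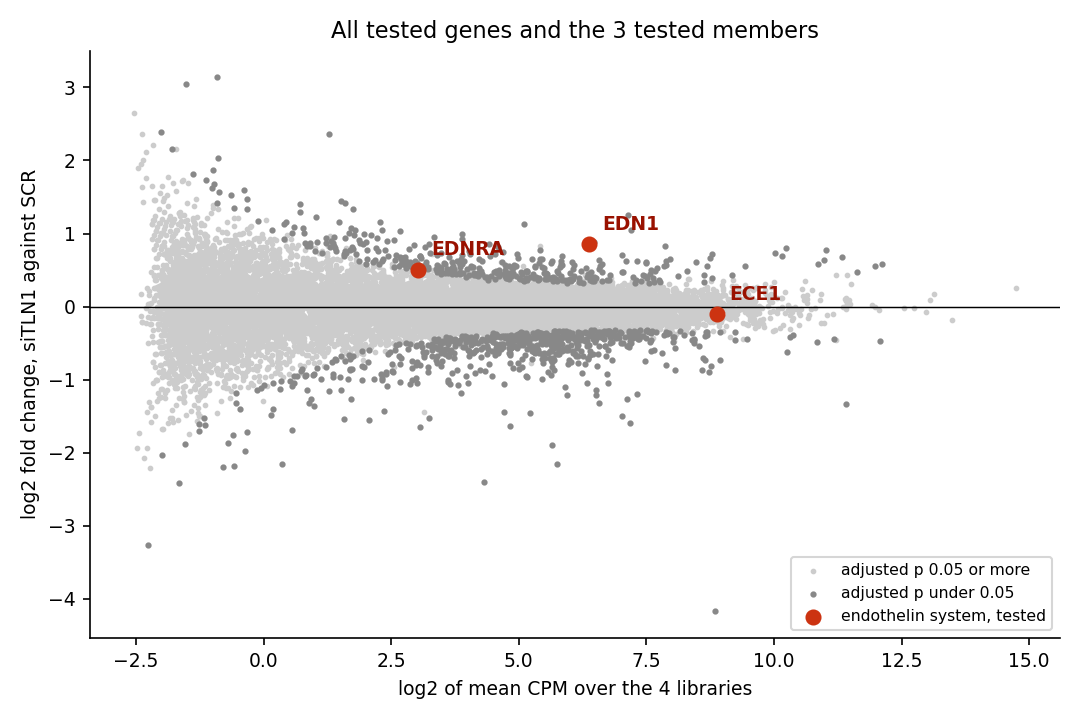
Log2 fold change of siTLN1 against SCR (y axis) plotted over the log2 of the mean CPM (x axis) for the 16137 tested genes, with called genes in dark grey and the 3 tested members in red. EDN1 (0.85) lies above the band of most genes of similar level, EDNRA (0.51) lies at the upper edge of the band at a lower level, and ECE1 (−0.10) lies within it.

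Genes that act around the endothelins were taken as 5 lists, which share no gene with the 6 members. They were chosen with earlier results of these data known. Whether the shares called in the lists differ from those of all tested genes was not tested. The first held 14 genes, EDN3 and 13 proteases that process or clear the peptide or are related to those that do. Of these, 6 were tested and 0 passed the threshold in edgeR's quasi-likelihood test. Their median log2 fold change was −0.20 (0.0033 over all tested genes). In that test 2 genes, both lower, were at an unadjusted p under 0.05. Over all 16137 tested genes 3196 were, 1460 of them higher and 1736 lower. FURIN, which cuts the endothelin precursor, was at 143 and 154 CPM in SCR and 134 and 137 CPM in siTLN1. MME (neprilysin), which degrades the peptide, was at 58.3 and 39.0 CPM in SCR and 46.7 and 40.0 CPM in siTLN1. CTSA, a carboxypeptidase that inactivates endothelin-1, went from 233 and 248 CPM in SCR to 191 and 196 CPM in siTLN1, with an adjusted p of 0.0540. DESeq2 called CTSA alone in this list, the edgeR fit without SCR library b called MME alone, and limma-voom called 0 genes. The rival route of the chymase CMA1 had 0 counts.

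The second list held 33 G proteins, effectors and regulators that couple to the receptors. Of 31 tested, 3 (9.68%) were lower and 0 were higher, beside 3.77% lower and 2.30% higher of all tested genes. The median log2 fold change was −0.010. At an unadjusted p under 0.05, 2 were higher and 5 lower, beside 1460 higher and 1736 lower of all 16137 tested genes. DESeq2 and limma-voom called the same 3 genes as edgeR. GNA12, the alpha subunit of G12, fell from 182 and 175 CPM in SCR to 132 and 139 CPM in siTLN1 (log2 fold change −0.40, adjusted p 0.0153). GNAI2, an inhibitory alpha subunit, fell from 448 and 480 CPM to 352 and 376 CPM (adjusted p 0.0380). PLCB3, a phospholipase C that Gq activates, fell from 94.4 and 102 CPM to 78.2 and 72.9 CPM (adjusted p 0.0253). The alpha subunits of Gq and G11 themselves were not called, with log2 fold changes of −0.29 for GNAQ (adjusted p 0.0833) and −0.16 for GNA11 (0.353). The number of calls in this list was 0 without siTLN1 library a, 2 (PLCB3 lower and RGS4 higher) without SCR library a and 1 (GNA12) without either remaining library or with no filter on low counts.

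The third list held 28 transcription factors described at the EDN1 promoter. The description is general knowledge, but the list was drawn up with earlier results of these data known. Of 27 tested, 4 (14.8%) were lower and 0 were higher, beside 3.77% lower and 2.30% higher of all tested genes. The median log2 fold change was −0.0084. At an unadjusted p under 0.05, 3 were higher and 6 lower, beside 1460 higher and 1736 lower of all 16137 tested genes. DESeq2 and limma-voom called the same 4 genes as edgeR. EPAS1, which encodes the hypoxia-inducible factor HIF-2 alpha, fell from 208 and 174 CPM in SCR to 70.9 and 63.8 CPM in siTLN1, or −1.50 on the log2 scale (standard error 0.11, adjusted p 5.03e-07). TEAD4, a DNA-binding partner of YAP and TAZ, fell from 23.8 and 25.4 CPM to 12.4 and 14.5 CPM (log2 fold change −0.87, adjusted p 0.000211). PPARG, a nuclear receptor known to repress EDN1, fell from 16.6 and 16.8 CPM to 11.3 and 12.3 CPM (log2 fold change −0.50, adjusted p 0.0160). GATA2, which binds the GATA word, was the remaining called gene, named here after its values were seen, at 34.0 and 42.9 CPM in SCR and 23.1 and 30.1 CPM in siTLN1 (log2 fold change −0.53, adjusted p 0.0429). The AP-1 genes JUN (log2 fold change 0.20, adjusted p 0.277) and FOSL1 (−0.0077, 0.980) were not called, and neither was HIF1A (0.17, 0.346). The list had 2 calls (EPAS1 and TEAD4) without siTLN1 library a, 3 without SCR library b, where GATA2 was lost, and 7 without SCR library a, where TEAD1 was a higher one.

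**Figure D3:**
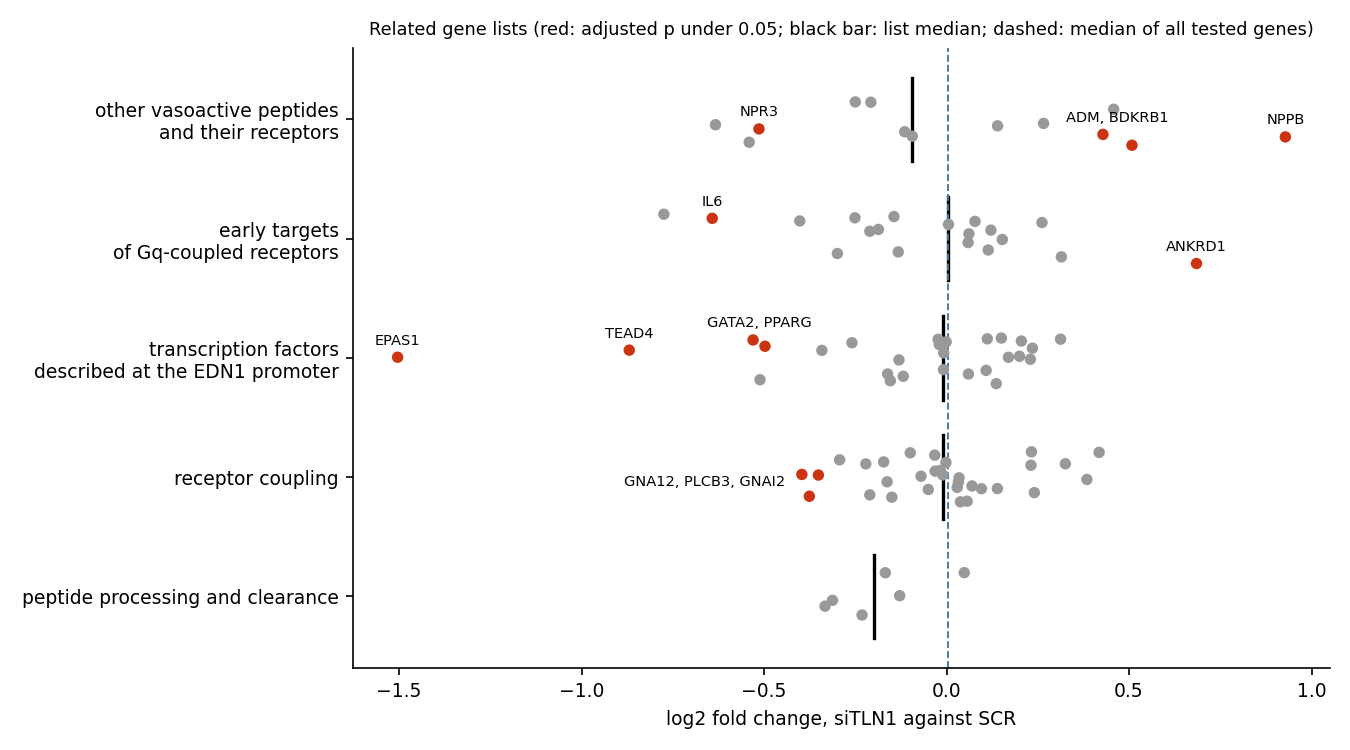
Each point is 1 tested gene of a list (rows), placed by its log2 fold change of siTLN1 against SCR (x axis), with height within a row spread only for legibility. Red points are called, black bars are list medians and the dashed line is the median of all tested genes. The 5 medians lie between −0.20 and 0.0053, and EPAS1 at −1.50 is the point farthest from 0.

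The fourth list held 19 early targets of Gq-coupled receptors, and all 19 were tested. Of these, 1 was higher and 1 was lower (10.5% called, beside 6.07% of all tested genes). The median log2 fold change was 0.0053. In edgeR's quasi-likelihood test, 2 were higher and 4 lower at an unadjusted p under 0.05. Over all 16137 tested genes, 1460 were higher and 1736 lower at that level. ANKRD1, a muscle and YAP-responsive repeat protein, rose from 9.50 and 9.59 CPM to 14.97 and 15.7 CPM (0.68, 0.00205). IL6, a cytokine, fell from 53.6 and 62.8 CPM to 31.9 and 42.6 CPM (−0.64, 0.0128), and 20.7% of its exon bases are shared with a gene on the opposite strand. IL6 was not called without siTLN1 library a, and EGR1 was called as lower without SCR library b. The immediate early gene EGR1 had 40.1 and 28.4 CPM in SCR and 25.96 and 25.8 CPM in siTLN1 (adjusted p 0.120), and the matrix-associated growth factor gene CCN2 had a log2 fold change of 0.061 (adjusted p 0.821).

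The fifth list held 25 other vasoactive peptides, their enzymes and their receptors. Of 13 tested, 3 were higher and 1 was lower (30.8% called, beside 6.07% of all tested genes). The median log2 fold change was −0.094. In edgeR's quasi-likelihood test, 4 were higher and 3 lower at an unadjusted p under 0.05. Over all 16137 tested genes, 1460 were higher and 1736 lower at that level. ADM, the vasodilator adrenomedullin, rose from 88.7 and 101 CPM in SCR to 130 and 125 CPM in siTLN1 (log2 fold change 0.43, adjusted p 0.0131). On the per-kilobase scale ADM was at 40.8 in SCR and 54.9 in siTLN1, near the 29.2 and 52.8 CPM per kilobase of EDN1. BDKRB1, the inducible bradykinin receptor, rose from 11.2 and 10.7 CPM to 15.3 and 15.7 CPM (0.51, 0.0148), and 15.9% of its exon bases are shared with a gene on the same strand and 8.22% with one on the opposite strand. NPPB, the precursor of B-type natriuretic peptide, named after its values were seen, rose from 0.881 and 0.948 CPM to 1.59 and 1.87 CPM (0.93, 0.0425), a call that limma-voom did not make and for which DESeq2 gave no adjusted p. NPR3, the natriuretic peptide clearance receptor, fell from 91.2 and 74.9 CPM to 61.4 and 54.97 CPM (−0.51, 0.00999). Only NPR3 was called in this list without siTLN1 library a, and only ADM without siTLN1 library b. Without SCR library a the calls were BDKRB1, ACE and ADM2, the last 2 lower, and NPPB was lost without each of the 4 libraries. Among the tested receptors of this list, EDNRA in SCR (1.59 CPM per kilobase) lay below AGTR1 (2.87), BDKRB1 (4.61), NPR3 (8.32) and NPR2 (10.3) and above BDKRB2 (0.834) and CALCRL (0.151), all as mean CPM per kilobase.

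**Figure D4:**
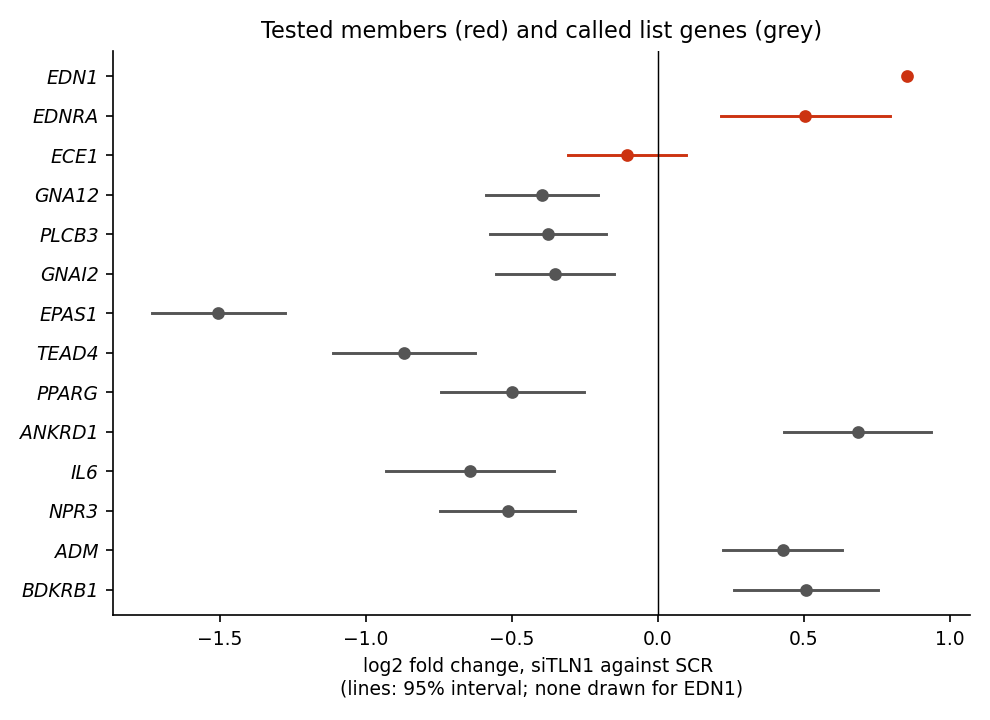
Log2 fold changes of siTLN1 against SCR (x axis) of the 3 tested members in red and of 11 called list genes in grey, with 95% intervals from the edgeR fit (none drawn for EDN1, which was chosen for its rise). The interval of ECE1 crosses 0 and that of EDNRA runs from 0.22 to 0.80.

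Of the 13 list genes called, EPAS1, TEAD4 and ANKRD1 passed the threshold under each of the 11 other settings tried, and the other 10 lost their call in at least 1. The 13 genes kept their direction in each of the 142 values from these settings.

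The genes with a pattern most like that of EDN1 were sought among 10475 other tested genes with a symbol and a mean of at least 5 CPM, by the Euclidean distance of centred log2 CPM over the 4 libraries. The nearest was MN1 (distance 0.10), a transcriptional coactivator, at 160 and 175 CPM in SCR and 315 and 281 CPM in siTLN1. Next came SOX4 (0.12), a transcription factor, at 61.1 and 64.0 CPM against 119 and 111 CPM. CDON (0.13), LRP4 (0.15) and BMF (0.16) followed, with log2 fold changes of 0.73, 0.73 and 0.69. Of the exon bases of CDON, 26.7% are shared on the opposite strand (BMF 8.46%, LRP4 5.89%, SOX4 3.45%, MN1 0%). All 5 were higher in siTLN1 library a than in library b, as EDN1 was. The distance rests on 4 libraries, follows the difference that EDN1 was chosen for, and carries no test.

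**Figure D5:**
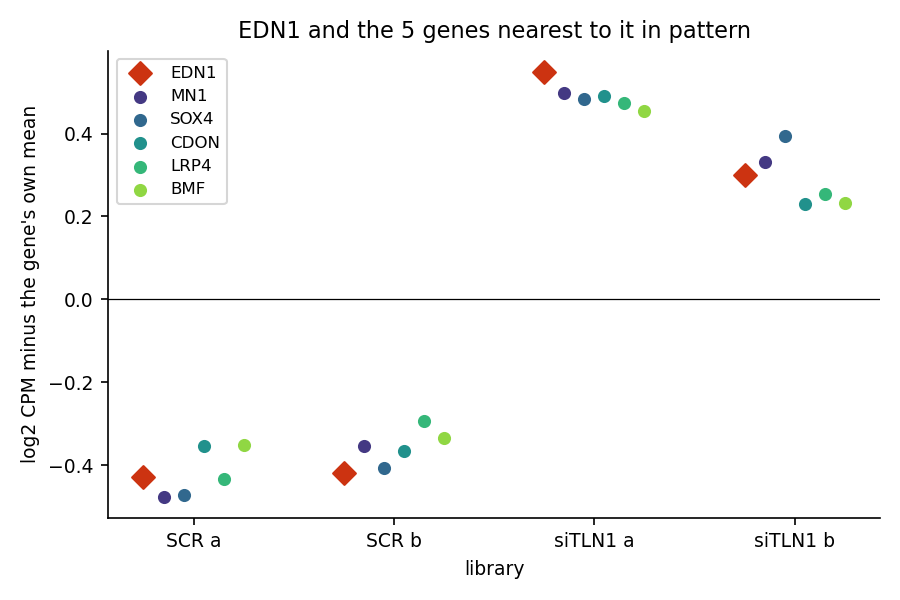
Log2 CPM minus each gene's own mean (y axis) in the 4 libraries (x axis) for EDN1 (red diamonds) and the 5 nearest genes (circles), offset sideways for legibility. All 6 genes lie below 0 in both SCR libraries and above 0 in both siTLN1 libraries, highest in siTLN1 library a.

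Genes beside the tested members on the chromosome were read as a further description, chosen by position after the data were seen. The nearest tested protein-coding gene before EDN1 on chromosome 6 is HIVEP1, 125 kilobases away, at 64.5 and 61.2 CPM in SCR and 76.3 and 63.2 CPM in siTLN1 (log2 fold change 0.15, adjusted p 0.472). The nearest after it is PHACTR1, 419.6 kilobases away, at 0.220 and 0.258 CPM against 0.577 and 0.319 CPM (0.84, standard error 0.50, adjusted p 0.384). The nearest such genes around EDNRA, SLC10A7 and TMEM184C, had adjusted p values of 0.285 and 0.847, and those around ECE1, EIF4G3 and NBPF3, had 0.938 and 0.668. None of these 6 neighbours was called, and whether their changes differ from those of the members was not tested.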

How the data were processed

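Polyadenylated RNA of 4 Hs578T cultures was sequenced. The authors deposited raw gene counts. Per the file headers, featureCounts 2.0.0 counted read pairs on GENCODE 33 (GRCh38) with no option for strand, although the library kit marks strand per the labels, and none for reads fitting several genes. STAR 2.7.9a and edgeR 3.34.1 are named in the submitters' processing notes. The authors also deposited log2 CPM values for 16137 genes, and 100% of them matched, after ordering each gene's values within a group, log2 CPM from edgeR with TMM scaling (tolerance 1e-06). Exon length, another unit in the deposited count table, is in bases. No column was unmapped (0), and 0 entries named no gene.

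Genes kept by filterByExpr (minimum count 10, minimum total 15), 16085 of 16137 with a symbol, were compared by edgeR 4.0.16 (R 4.3.3) with TMM scaling and glmQLFTest (robust, not legacy), with Benjamini-Hochberg adjustment over all of them and a threshold of 0.05. CPM values are TMM-scaled. Replicates differed beyond counting noise (chi-square per degree of freedom 13.3 in SCR and 18.3 in siTLN1). With 2 libraries a group, an exact permutation test of 1 value cannot go below 0.333. Named genes were TLN1, the 6 members, up to 3 genes of each of 5 lists by smallest p among those called, and the 5 nearest in pattern to EDN1. One gene of the list of early targets is not reported here and was left out of its counts. The members and lists were chosen with earlier results of these data known. Symbols and promoters came from RefSeq and gene name tables (Python 3.11.15, Biopython 1.88). Also run were scaling by RLE or by totals alone, no filter, DESeq2 1.42.0, limma-voom and limma-trend (limma 3.58.1), a replicate block and each library left out. The edgeR step was tested on simulated data.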

Additional observations from a re-analysis of the deposited data

How the results depend on the processing

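The values of EDN1 with all 4 libraries ran from 0.85 to 0.86 over the other settings and from 0.72 (without siTLN1 library a) to 0.98 with 1 library left out. EDNRA kept its direction in all 11, but its call was lost with no filter (0.52) and DESeq2 (0.51). All the fits without 1 library together gave 0.42 to 0.60, and 3 of them lost the call. ECE1 was called in none of its 11, with log2 fold changes from −0.15 to −0.052 when 1 library was left out. With no filter, the adjusted p values of EDN2, EDNRB and ECE2 were 0.995, 0.732 and 0.728, and no fold is given at such counts. The 980 called genes became 663 with no filter, 1253 with total counts only and 847 with DESeq2, and 347 to 1116 with 1 library left out. Genes called in the lists were 0 to 1 for peptide processing, 0 to 2 for receptor coupling, 2 to 7 for transcription factors, 1 to 3 for early targets and 1 to 3 for other vasoactive peptides when 1 library was left out. Peptide processing had 1 with total counts only and 1 with DESeq2, and receptor coupling had 1 with no filter. A fit that leaves out a library assumes that the lone sample of a group varies like the other group.

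The replicate numbers of the deposited log2 CPM columns were tried as a block. The header numbers behind a and b, whose meaning is not stated, recur in both groups. For EDN1, EDNRA and ECE1, the values of library a matched replicate 1 and those of library b replicate 2. The differences between replicates 1 and 2 correlated across genes at 0.19 between the groups, but 2 pairs cannot establish a pairing and no label states one. With the replicate block, limma-trend called 3645 genes (970 of them among the 980), 1936 (53.1%) of them lower, while limma-trend without the block called 966, 596 (61.7%) of them lower. With the block it called 2, 11, 12, 6 and 8 genes of the 5 lists in the order above. Of the neighbours, the sign turned for TMEM184C (−0.13 to 0.035), EIF4G3 (−0.087 to 0.046) and NBPF3 (−0.038 to 0.30) when 1 library was left out. EDN2, EDNRB and ECE2 had 11 counts or fewer in each library, and reads from the shared bases of ECE2 are not in its count.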
